A study of Arabidopsis thaliana with 12 samples.

Results

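The comparison of pH 6 with pH 4.5 after 1 h took in 6 of the 12 Affymetrix ATH1 arrays of the series, 3 arrays labelled pH 6, 1 h and 3 labelled pH 4.5, 1 h, chosen by their titles alone. Each array held total RNA from roots of Arabidopsis thaliana accession Col-0, labelled as 3.90 weeks old, from plants moved as seedlings from agarose tubes into non-sterile hydroponics at 23 °C. The other 6 arrays, 3 at pH 6 and 3 at pH 4.5, were taken after 8 h and are used here for the shared estimate of spread and to ask whether a pH difference seen at 1 h was the same later. All groups share the accession and the medium, whose phosphate stock is labelled pH 5.6. The labels leave the starting pH of the culture unstated, and no group was sampled before it, so each difference below is between the 2 pH values and does not show at which of them a gene changed. Nothing in them says that the replicates are separate cultures, so a p-value covers the spread among these arrays alone, and that spread may be technical.

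Root cells pump protons into the wall space, and a more acid wall loosens and extends. Expansins, which slip wall polymers past each other, work best at acid pH, while xyloglucan and pectin enzymes cut, rejoin or stiffen the network. Wall strain and outside pH are read at the cell surface by receptor-like kinases, RALF peptides and calcium signals, which share much of their machinery with the early defence response.

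Signals on the 6 arrays correlated at 0.980 to 0.983 within a group and at 0.971 to 0.976 between the groups (Pearson, over probe sets, which do not count as replicates). Median signals were 39.9 to 40.2 at pH 6 and 38.2 to 38.3 at pH 4.5 and did not overlap, and neither did the actin 3' to 5' signal ratio, at 2.28 to 2.36 at pH 6 and 2.57 to 3.41 at pH 4.5, or the GAPDH ratio, at 1.13 to 1.18 at pH 6 and 0.888 to 1.00 at pH 4.5. The part of these array properties in the results cannot be told apart from pH. Of 10 nuclear photosynthesis genes kept as markers of shoot tissue, 0 were called and their summed signal was 257 to 317 at pH 6 and 217 to 328 at pH 4.5. PRK and SBPASE, the Calvin cycle enzymes on that list, averaged 4.88 and 4.62 at pH 6 and 10.05 and 9.35 at pH 4.5. LHCB4.1, a light-harvesting protein, averaged 78.2 at pH 6 and 61.0 at pH 4.5, and no gene of that list was at 0. Differences of 7 of the 10 were above 0, and PRK and SBPASE were the 2 furthest below it. The root hair expansins EXPA7 and EXPA18 were present, at a summed 189.6 to 268 at pH 6 and 179 to 216 at pH 4.5. In RNA from whole roots, fewer cells of a type and less RNA per cell cannot be told apart. Precision is limited by the number of arrays: the standard errors of the log2 differences had a median of 0.18.

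A gene is called here when its difference in log2(signal + 4), pH 6 minus pH 4.5, had an adjusted p under 0.05 in limma over all 22746 probe sets. By this rule 1464 probe sets were called (6.44%), 674 higher at pH 6 (2.96%) and 790 lower (3.47%). Among the 13286 genes that could be named, each on its brightest probe set, 377 were called higher (2.84%) and 385 lower (2.90%), 5.74% in all. Of those, 79 were called higher by at least 2-fold (0.595%) and 124 lower by at least 2-fold (0.933%), together 1.53%. The median difference over named genes was 0.06. Centring each array on its median moved the share of calls that were higher at pH 6 to 32.2%, against 46.0% as reported, with 456 higher and 959 lower. Without pH 4.5 replicate 1 and without pH 6 replicate 3 the count of higher calls fell to 429 and 442. Most named genes carry only a locus code in the annotation used, so the families below hold the 880 genes with a family name in 77 lists. Members of a family without such a name are outside its list. Below, a family, its measured members and its only call therefore refer to the list and not to the whole family. The lists were chosen with earlier results of these data known, and whether that raised their shares of calls was not tested. Of these 880 genes, 31 were called higher and 51 lower. All 82 had groups that did not overlap, which the call itself favours, so it adds no separate support. Over all named genes, called or not, 22.1% had such groups, 13.7% with pH 6 higher and 8.38% with pH 6 lower. Adding 4 before the log understates changes of genes with low signals, and a signal of 10.4 marks the lowest 30% of probe sets.

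The called expansin genes were higher at pH 6 and the called expansin-like genes lower. The alpha-expansin EXPA9 and the beta-expansin EXPB1 were several-fold higher at pH 6, while 3 of the 5 measured expansin-like genes were among the genes furthest below their pH 4.5 level. EXPA9 (AT5G02260) had signals of 124, 133 and 131 at pH 6 and 9.98, 13.7 and 14.9 at pH 4.5, 7.97-fold higher at pH 6 on the log2(signal + 4) scale (log2 difference 2.99 ± 0.14, SE, adjusted p = 1.01e-08). EXPB1 (AT2G20750) had 58.3, 72.0 and 82.5 at pH 6 and 8.76, 13.8 and 19.4 at pH 4.5 (log2 difference 2.09 ± 0.23, adjusted p = 3.83e-05). All pH 6 arrays lay above all pH 4.5 arrays for both.

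EXPA9 was the only call among the 10 alpha-expansins listed, though all 10 differences were above 0, with a list median of 0.35. That median was 0.22 with 16 added in place of 4 and also without pH 4.5 replicate 1, and EXPA15 was called as well without pH 4.5 replicate 3. The others lay between 0.10 for EXPA18 and 0.59 for EXPA8. EXPA4 differed by 0.20 and was not called. Among the 4 beta-expansins EXPB3 differed by 0.15 and EXPB2 by -0.21, and neither was called.

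The expansin-like A genes resemble expansins in sequence, but wall loosening has not been shown for them in the way it has for expansins. EXLA2 (AT4G38400) had signals of 13.9, 17.6 and 20.2 at pH 6 and 253, 268 and 304 at pH 4.5, a log2 difference of -3.72 ± 0.23 (adjusted p = 1.18e-07). EXLA1 (AT3G45970) had 158, 173 and 99.8 at pH 6 and 718, 746 and 714 at pH 4.5, a difference of -2.34 ± 0.17 (adjusted p = 4.57e-07). EXLA3 (AT3G45960) had 6.02, 24.9 and 5.59 at pH 6 and 62.8, 57.4 and 78.6 at pH 4.5, a difference of -2.31 ± 0.34 (adjusted p = 0.000584). In each of the 3 genes the pH 6 arrays were low without overlap, with EXLA3 near the floor on 2 of its 3 pH 6 arrays. The expansin-like B genes EXLB1 and EXLB2 (AT4G30380) differed by 0.19 and 0.09 and were not called.

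3 genes for enzymes of xyloglucan were lower at pH 6. XTH18 and XTH19 are xyloglucan endotransglucosylase/hydrolases, which cut this hemicellulose and rejoin its ends, and CSLC04 makes its glucan backbone. XTH19 (AT4G30290) had signals of 171, 261 and 298 at pH 6 and 1151, 1097 and 1127 at pH 4.5, a log2 difference of -2.23 ± 0.14 (adjusted p = 1.62e-07). XTH18 (AT4G30280) had 285, 382 and 318 at pH 6 and 1301, 1294 and 1227 at pH 4.5, a difference of -1.95 ± 0.10 (adjusted p = 1.60e-08). Every pH 6 array lay far below every pH 4.5 array for both. CSLC04 (AT3G28180) had 144, 141 and 204 at pH 6 and 561, 529.5 and 517 at pH 4.5, a difference of -1.71 ± 0.12 (adjusted p = 3.99e-07), again without overlap. The other 8 of 10 XTH genes were not called and ranged between -0.73 for XTH26 and 0.65 for XTH33, and the other 7 of 8 cellulose synthase-like genes ranged between -0.28 and 0.83. The close family members XTH18 and XTH19 were measured by a probe set each, and cross-hybridization between them was not tested.

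Genes that act on pectin, arabinogalactan and other wall polymers were mostly not called, with single members at each end. PME41 (AT4G02330, listed as ATPMEPCRB), a pectin methylesterase, had signals of 158, 209.9 and 162 at pH 6 and 749, 701 and 622 at pH 4.5, a log2 difference of -1.95 ± 0.11 (adjusted p = 4.50e-08), and the other 4 pectin methylesterases were not called, at 0.10 to 0.48. TBR (AT5G06700), founder of the trichome birefringence family, whose members acetylate wall polysaccharides or are thought to, had 124, 150.1 and 132 at pH 6 and 229, 225 and 239 at pH 4.5 (-0.76 ± 0.10, adjusted p = 0.000149). Its relative TBL19 had 17.3, 21.8 and 22.7 at pH 6 and 5.73, 6.33 and 10.5 at pH 4.5 (1.11 ± 0.25, adjusted p = 0.0124). The 2 genes stood at opposite ends of a family of 24 whose median was 0.20, and the call of TBL19 was lost without pH 6 replicate 3 or pH 4.5 replicates 1 or 2 (adjusted p up to 0.0601).

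GALT29A (AT1G08280), a galactosyltransferase of arabinogalactan proteins, had signals of 42.4, 68.2 and 60.2 at pH 6 and 90.8, 103 and 154 at pH 4.5, a log2 difference of -0.97 ± 0.19 (adjusted p = 0.00458), alone among 10 wall glycosyltransferases. GH9C3, 1 of 15 GH9 endoglucanases, had a difference of -0.66 ± 0.15 (adjusted p = 0.0171), a call lost without pH 6 replicate 1 or pH 4.5 replicate 3 (adjusted p up to 0.0756). The SKU5-similar gene sks15, of a family related to multicopper oxidases, was higher at pH 6, at 161, 155 and 165 at pH 6 and 85.1, 94.7 and 111 at pH 4.5 (0.71 ± 0.10, adjusted p = 0.000431). Beside these families EXO (AT4G08950), the brassinosteroid-responsive EXORDIUM gene that takes part in cell expansion, had 174, 219 and 224 at pH 6 and 2725, 3006 and 2262 at pH 4.5, a difference of -3.67 ± 0.12 (adjusted p = 1.14e-10). Over the 11 wall lists, 4 of 100 genes were called higher and 10 lower, beside 2.84% and 2.90% of all named genes. The median over all 100 was 0.09, beside 0.06 over all named genes. No wall call named above was lost by centring or quantile normalization.

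**Figure D1:**
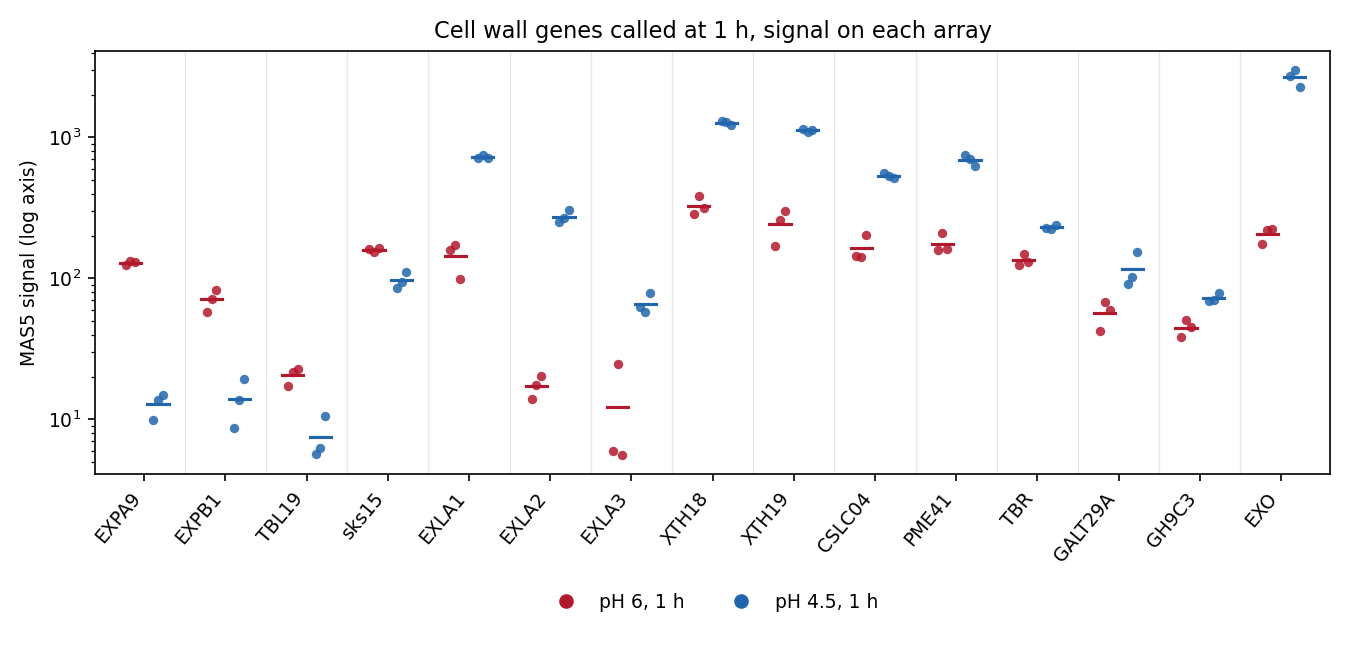
Signals of 14 wall-family genes called at 1 h and of EXO, on a log axis in MAS5 units. For each gene, red points at the left are the 3 pH 6 arrays, blue points at the right are the 3 pH 4.5 arrays, and bars are the means. The first 4 genes are higher at pH 6 and the other 11 lower, and no gene's groups overlap.

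Of the genes that report on the wall or on growth at the cell surface, THE1 differed most. THE1 (AT5G54380), the THESEUS1 receptor kinase that senses wall damage and binds RALF peptides, had signals of 122, 107 and 108 at pH 6 and 283, 267 and 263 at pH 4.5, a log2 difference of -1.25 ± 0.10 (adjusted p = 9.79e-07), with no overlap. RALFL33 (AT4G15800), a RALF peptide precursor, had 431, 377 and 382 at pH 6 and 722, 672 and 467 at pH 4.5 (-0.62 ± 0.13, adjusted p = 0.00902), with 1 pH 4.5 array close to the pH 6 range. The call of RALFL33 was lost without pH 4.5 replicates 1 or 2 (adjusted p up to 0.053). FER, the related receptor kinase FERONIA, differed by -0.35 and was not called, nor were the other 9 of 10 RALF genes, at -0.19 to 0.51.

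Of 16 named receptor-like kinases, 3 were called higher at pH 6 and THE1 lower, beside 2.84% and 2.90% of all named genes. PXL1 (AT1G08590), a relative of the vascular receptor PXY, had signals of 125, 134 and 106 at pH 6 and 78.8, 86.0 and 72.5 at pH 4.5, a log2 difference of 0.60 ± 0.11 (adjusted p = 0.00371). Its relative PXL2 (AT4G28650) differed by 0.40 ± 0.10 (adjusted p = 0.0251), and GSO1, a receptor needed for the Casparian strip, by 0.42 ± 0.11 (adjusted p = 0.0304). Both calls rest on small differences: that of PXL2 was lost without pH 6 replicates 2 or 3 or pH 4.5 replicates 1 or 3 (adjusted p up to 0.11) and that of GSO1 without pH 6 replicates 1, 2 or 3 or pH 4.5 replicates 1 or 3 (adjusted p up to 0.137), and after centring their adjusted p were 0.0633 and 0.0871.

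Calmodulin-like genes encode small calcium-binding proteins, several of which respond within minutes to touch, wounding and cold. Of 8 measured, 4 were lower at pH 6 and 1 higher, with a list median of -0.68. Over all named genes 2.90% were called lower and 2.84% higher. CML38 (AT1G76650) had signals of 57.6, 45.0 and 36.3 at pH 6 and 236, 191 and 205 at pH 4.5, a log2 difference of -2.11 ± 0.27 (adjusted p = 0.000165). CML39 (AT1G76640) had 21.5, 8.24 and 17.4 at pH 6 and 77.1, 84.5 and 67.2 at pH 4.5 (-2.09 ± 0.32, adjusted p = 0.000736), and CML37 (AT5G42380) had 10.5, 8.15 and 5.13 at pH 6 and 35.5, 25.6 and 34.1 at pH 4.5 (-1.60 ± 0.24, adjusted p = 0.000623). CML23 (AT1G66400) had 30.1, 33.6 and 25.8 at pH 6 and 63.0, 66.8 and 78.2 at pH 4.5 (-1.12 ± 0.19, adjusted p = 0.00193). For these 4 genes every pH 4.5 array lay above every pH 6 array. CML43 (AT5G44460) went the other way, at 143, 205 and 137 at pH 6 and 88.2, 102 and 115 at pH 4.5 (0.63 ± 0.14, adjusted p = 0.0139), a call lost without pH 6 replicate 2 or pH 4.5 replicate 1 (adjusted p up to 0.0745).

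The lists of glutamate receptor-like and IQ-domain genes gave 4 calls among 23 genes, beside 5.74% called over all named genes. None of these calls was kept when each array was left out in turn. Calcium genes with no family name in the annotation used are outside these lists. Among 8 glutamate receptor-like channels, which pass calcium, GLR3.5 was called higher (0.84 ± 0.22, adjusted p = 0.0332) and GLR2.7 lower (-1.62 ± 0.46, adjusted p = 0.0497). Among 15 IQ-domain genes, whose proteins bind calmodulin, IQD16 (1.21 ± 0.28, adjusted p = 0.0164) and iqd33 (1.05 ± 0.29, adjusted p = 0.0426) were called higher. Group means of GLR3.5, GLR2.7 and IQD16 fell under the low-signal mark of 10.4 in 1 group at least. The calls were lost without pH 6 replicates 1, 2 or 3 or pH 4.5 replicates 2 or 3 (adjusted p up to 0.13) for GLR3.5, without pH 6 replicates 1 or 2 or pH 4.5 replicates 1, 2 or 3 (adjusted p up to 0.174) for GLR2.7, without pH 6 replicate 3 or pH 4.5 replicates 2 or 3 (adjusted p up to 0.0791) for IQD16 and without pH 6 replicates 2 or 3 or pH 4.5 replicates 1 or 2 (adjusted p up to 0.182) for iqd33, and those of GLR3.5 and iqd33 also after centring (adjusted p = 0.0502 and 0.0539).

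Early defence genes were called in both directions, 4 of 8 higher at pH 6 and 1 lower, in a list chosen with earlier results of these data known. Over all named genes 2.84% were called higher and 2.90% lower. WRKY53 (AT4G23810), a transcription factor of pathogen response and leaf ageing, had signals of 158, 171 and 145 at pH 6 and 75.5, 63.7 and 67.1 at pH 4.5, a log2 difference of 1.15 ± 0.10 (adjusted p = 5.05e-06). WRKY22 (AT4G01250), a target of the flagellin-triggered kinase cascade, had 79.2, 69.8 and 67.0 at pH 6 and 37.7, 42.8 and 40.3 at pH 4.5 (0.78 ± 0.12, adjusted p = 0.000884). STZ (AT1G27730), a zinc-finger repressor of abiotic stress response also known as ZAT10, was the lower one, at 189, 124 and 162 at pH 6 and 379.7, 401 and 428 at pH 4.5 (-1.34 ± 0.13, adjusted p = 1.17e-05). These 3 genes had groups well apart.

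BIK1 (AT2G39660), the cytoplasmic kinase that relays pattern-receptor signals, and PUB22 (AT3G52450), a ubiquitin ligase that dampens them, were higher by smaller steps. BIK1 had signals of 301, 258 and 207 at pH 6 and 179, 182 and 145 at pH 4.5 (0.58 ± 0.13, adjusted p = 0.0165) and PUB22 had 264, 231 and 211 at pH 6 and 201, 157 and 139 at pH 4.5 (0.51 ± 0.13, adjusted p = 0.0275). Their pH 6 arrays were above their pH 4.5 arrays by narrow margins. The call of BIK1 was lost without pH 6 replicates 1 or 2 or pH 4.5 replicate 3 (adjusted p up to 0.0782) and that of PUB22 without pH 6 replicates 1 or 2 or pH 4.5 replicates 2 or 3 (adjusted p up to 0.117). WRKY6, another of 7 WRKY factors, was lower (-0.65 ± 0.11, adjusted p = 0.00124), and the pattern receptor EFR and the ligases PUB23 and PUB24 were not called, at 0.10, -0.36 and 0.05.

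Hormone genes gave 2 calls among 40 genes in 8 lists (5%, beside 5.74% of all named genes), both lower at pH 6. GH3.1 (AT2G14960), of the family that conjugates auxin and other hormones to amino acids, had signals of 7.62, 12.9 and 6.86 at pH 6 and 44.7, 38.4 and 53.1 at pH 4.5, a log2 difference of -1.93 ± 0.22 (adjusted p = 4.03e-05), with no overlap and pH 6 signals near the low-signal mark. OPCL1 (AT1G20510), a ligase that activates jasmonate precursors, had 123, 106 and 124 at pH 6 and 213, 204 and 171 at pH 4.5 (-0.71 ± 0.11, adjusted p = 0.000567). DLAH (AT1G30370), a DAD1-like acylhydrolase, was higher, at 180.1, 196 and 189.7 at pH 6 and 56.9, 66.1 and 62.8 at pH 4.5 (1.55 ± 0.10, adjusted p = 2.26e-07). It stands outside the naming rule and was chosen after its values were seen. None of 7 Aux/IAA, 4 YUCCA, 6 cytokinin response and 6 gibberellin genes was called in limma, and 1, 2, 0 and 1 of them had an unadjusted p under 0.05. The YUCCA gene YUC6, of the auxin synthesis family, had 26.1, 20.3 and 14.9 at pH 6 and 2.88, 1.77 and 10.6 at pH 4.5 (1.53 ± 0.51, adjusted p = 0.103), and it was called on the 6 arrays of 1 h alone and with low signals left out (adjusted p = 0.0487 and 0.0453).

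**Figure D2:**
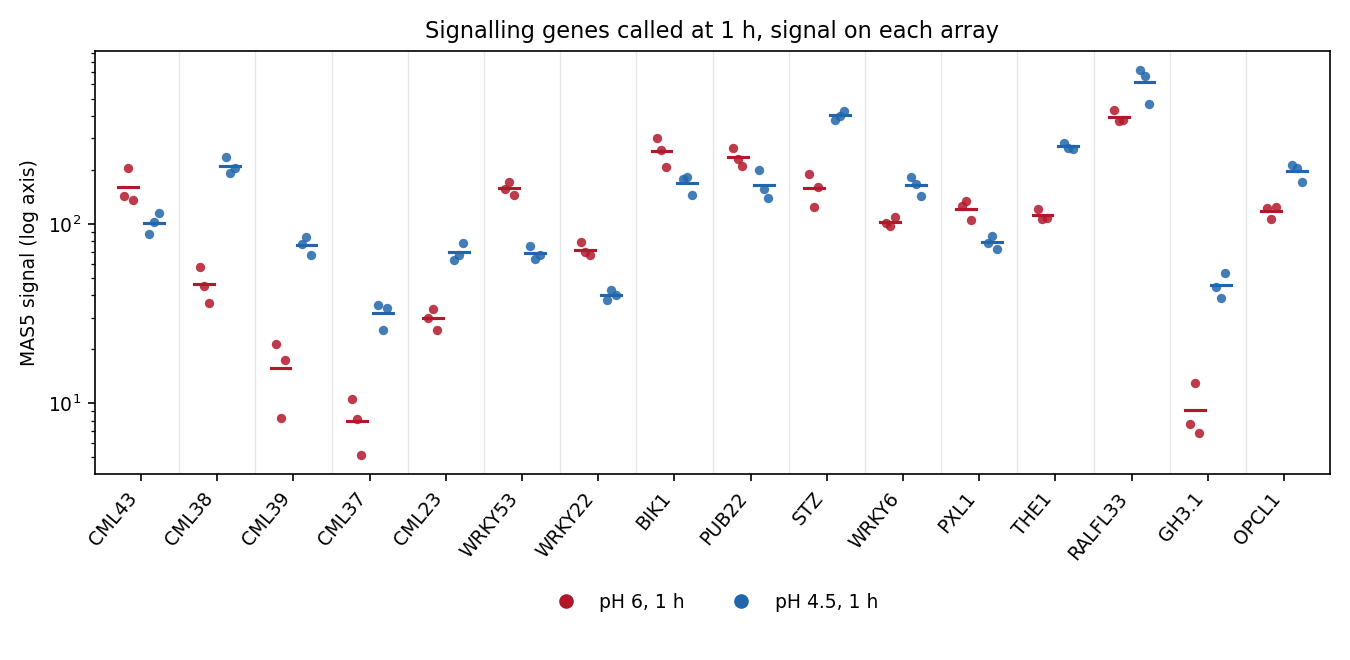
Signals of 16 calcium, defence, receptor and hormone genes called at 1 h, on a log axis in MAS5 units. Red points at the left of each gene are the 3 pH 6 arrays, blue points at the right the 3 pH 4.5 arrays, and bars are the means. CML43, WRKY53, WRKY22, BIK1, PUB22 and PXL1 are higher at pH 6 and the other 10 genes are lower.

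Among 23 bZIP transcription factors 2 were higher at pH 6 and 3 lower, beside 2.84% and 2.90% of all named genes. BZIP53 (AT3G62420), a regulator of the response to low energy, had signals of 788, 798 and 858 at pH 6 and 1534, 1513 and 1284 at pH 4.5, a log2 difference of -0.82 ± 0.10 (adjusted p = 5.87e-05), and its relative bZIP44 had 211, 243 and 198 at pH 6 and 297, 287 and 308 at pH 4.5 (-0.45 ± 0.09, adjusted p = 0.00758). bZIP58 had 57.5, 60.8 and 43.3 at pH 6 and 123, 172 and 140.3 at pH 4.5 (-1.37 ± 0.18, adjusted p = 0.000214). Groups of all 3 were apart. Higher at pH 6 were bZIP19, a regulator of zinc supply, at 245, 284 and 235 at pH 6 and 161, 174 and 192 at pH 4.5 (0.52 ± 0.09, adjusted p = 0.00171), and BZIP61, at 65.0, 85.2 and 97.1 at pH 6 and 38.4, 30.04 and 41.1 at pH 4.5 (1.09 ± 0.17, adjusted p = 0.000939). None of 42 AGAMOUS-like genes was called, with 6 at an unadjusted p under 0.05, and 31 of the 42 had a group mean under the low-signal mark.

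Transport lists, which hold 7 iron-regulating bHLH factors beside the transporters and proton pump subunits, gave 5 calls among 55 genes. This is 9.09%, beside 5.74% of all named genes, with no more than 1 call in any list. MTP11 (AT2G39450), a manganese transporter of the secretory pathway, had signals of 145, 177 and 162 at pH 6 and 385, 368 and 347 at pH 4.5, a log2 difference of -1.17 ± 0.10 (adjusted p = 4.85e-06). The nitrate and peptide transporter NPF4.3 (AT1G59740) had 129, 127 and 169.6 at pH 6 and 250.1, 278 and 209 at pH 4.5 (-0.78 ± 0.15, adjusted p = 0.00568). Both were lower at pH 6 without overlap. SWEET2 (AT3G14770), a sugar carrier of the root vacuole, was higher, at 95.4, 82.4 and 97.6 at pH 6 and 59.8, 60.8 and 54.0 at pH 4.5 (0.62 ± 0.12, adjusted p = 0.00522).

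The cation/proton exchanger CHX16 was also higher (0.80 ± 0.18, adjusted p = 0.0141), as was bHLH121, a regulator of iron uptake (0.48 ± 0.12, adjusted p = 0.0251). These calls were lost without pH 6 replicates 1 or 2 or pH 4.5 replicate 1 (adjusted p up to 0.0587) and without pH 6 replicates 1, 2 or 3 or pH 4.5 replicates 1 or 3 (adjusted p up to 0.117), in that order. Of the 5 measured subunits of the vacuolar proton pump, 0 were called and 1 had an unadjusted p under 0.05. Their differences lay between -0.11 and 0.29, the highest being that of VHA-A3, which was called without pH 6 replicate 1 (adjusted p = 0.0467).

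Of the detoxification enzymes called, 5 were lower at pH 6 and 1 higher. Tau glutathione transferases attach glutathione to foreign or damaged compounds, and UDP-glycosyltransferases attach sugars. GSTU22 (AT1G78340) had signals of 33.0, 31.9 and 33.7 at pH 6 and 95.5, 90.4 and 62.6 at pH 4.5, a log2 difference of -1.21 ± 0.18 (adjusted p = 0.000621), and GSTU25 (AT1G17180) had 16.4, 13.03 and 23.1 at pH 6 and 41.2, 41.4 and 44.8 at pH 4.5 (-1.14 ± 0.17, adjusted p = 0.000747). GSTU28 (AT1G53680) was higher, at 229.8, 243 and 248 at pH 6 and 142, 106 and 117 at pH 4.5 (0.97 ± 0.14, adjusted p = 0.000441). The 3 genes had groups apart, and the other 8 of 11 were not called.

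Of 52 UDP-glycosyltransferases, 3 were called (5.77%), all lower, near the 5.74% called over all named genes, and the list median was 0.007. UGT73B4 (AT2G15490) had signals of 0.783, 0.731 and 1.40 at pH 6 and 15.8, 26.7 and 30.5 at pH 4.5, and was near the floor at pH 6 (log2 difference -2.48 ± 0.24, adjusted p = 9.53e-06). Its neighbour in the same family UGT73B5 (AT2G15480) had 41.6, 61.4 and 50.9 at pH 6 and 107, 92.6 and 98.3 at pH 4.5 (-0.91 ± 0.18, adjusted p = 0.0052). IAGLU, which attaches glucose to the auxin indole-3-acetate, differed by -1.05 ± 0.24 (adjusted p = 0.017), a call lost without pH 6 replicates 1 or 3 or pH 4.5 replicates 1 or 2 (adjusted p up to 0.0839). UGT73B1, also of that subfamily, differed by -0.58 and was not called.

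Redox enzymes gave 3 calls, all lower at pH 6 by less than 2-fold. They were 1 of 7 class III peroxidases, 1 of 5 methionine sulfoxide reductases and 1 of 5 alternative NADH dehydrogenases. Over all named genes 5.74% were called. MSRB9, which repairs oxidized methionine, had signals of 1234, 1101 and 1368 at pH 6 and 2181, 2042 and 1991 at pH 4.5 (-0.75 ± 0.10, adjusted p = 0.000137), and peroxidase 25 (AT2G41480) had 405, 497 and 420.4 at pH 6 and 596, 636 and 589 at pH 4.5 (-0.46 ± 0.09, adjusted p = 0.00419). Both were lower at pH 6, each the only called member of its family. NDB2, an alternative NADH dehydrogenase of mitochondria, was called lower by 0.30 on the log2 scale (adjusted p = 0.0444), and the call was lost without pH 6 replicates 1, 2 or 3 or pH 4.5 replicates 2 or 3 (adjusted p up to 0.156). None of 13 thioredoxins and glutaredoxins was called (2 at an unadjusted p under 0.05), nor any of 8 aldehyde dehydrogenases (0) or 21 genes of respiratory carbon metabolism (1).

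Among enzymes of phenylpropanoids, which feed lignin, CCOAMT (AT1G67980) had signals of 128, 80.6 and 100.4 at pH 6 and 49.3, 53.3 and 59.8 at pH 4.5 (0.86 ± 0.20, adjusted p = 0.0185) and HCT (AT5G48930) had 884, 839 and 932 at pH 6 and 733, 681 and 746 at pH 4.5 (0.30 ± 0.08, adjusted p = 0.0491). Both were higher at pH 6. The call of CCOAMT was lost without pH 6 replicates 1 or 3 or pH 4.5 replicates 1 or 2 (adjusted p up to 0.0886) and that of HCT without any 1 of the 6 arrays (adjusted p up to 0.176) and after centring (adjusted p = 0.149). The list median of 10 genes was 0.39, but 0.17 with 16 added in place of 4 and 0.64 with 1 added, and 5 of the 10 had a group mean under the low-signal mark. CYP71B29, 1 of 24 cytochrome P450 genes (0.72 ± 0.14, adjusted p = 0.00683), and scpl29, 1 of 29 serine carboxypeptidase-like genes (0.47 ± 0.10, adjusted p = 0.00971), were the only calls of their families, both higher.

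A few annotated genes of nitrogen and sulfur metabolism, and the gene PRN, stood outside the lists. Except for GAT1_2.1, they were chosen after their values were seen. GAT1_2.1 (AT1G15040), a glutamine amidotransferase, had signals of 83.7, 19.2 and 45.3 at pH 6 and 214, 262 and 296 at pH 4.5 (-2.48 ± 0.57, adjusted p = 0.0166), and ASPGB1, an asparaginase, had 91.8, 59.9 and 90.0 at pH 6 and 239, 244 and 333 at pH 4.5 (-1.71 ± 0.21, adjusted p = 0.000119). APS3, an ATP sulfurylase, which activates sulfate, had 64.3, 72.9 and 66.7 at pH 6 and 169, 157 and 172 at pH 4.5 (-1.24 ± 0.09, adjusted p = 3.99e-07). All were lower at pH 6, the pH 6 arrays of GAT1_2.1 being spread widely, and its call was lost without pH 6 replicate 2 or pH 4.5 replicates 2 or 3 (adjusted p up to 0.077). SUFE2, a sulfur-mobilizing protein of iron-sulfur cluster assembly, differed by -0.96 ± 0.16 (adjusted p = 0.00135), and PRN, a pirin, by -1.26 ± 0.14 (adjusted p = 3.83e-05).

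Of the ubiquitin system, RING1, a membrane-bound ubiquitin ligase, had signals of 19.4, 19.0 and 18.7 at pH 6 and 40.1, 54.3 and 44.5 at pH 4.5 (-1.12 ± 0.18, adjusted p = 0.00121) and was lower at pH 6 without overlap. PUB26 (-1.14 ± 0.28, adjusted p = 0.0237) and UBC16 (-0.54 ± 0.13, adjusted p = 0.0221) were also called lower, with calls lost without pH 6 replicates 1 or 2 or pH 4.5 replicates 2 or 3 (adjusted p up to 0.106) for PUB26 and without pH 6 replicate 3 or pH 4.5 replicates 2 or 3 (adjusted p up to 0.0822) for UBC16. In all, 1 of 45 genes in these lists was called higher and 3 lower (8.89%, beside 5.74% of all named genes).

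Membrane and trafficking genes were mostly not called. The tetraspanins TET8, a marker of secreted vesicles, and TET9 were lower at pH 6, TET8 at 626, 636 and 633 at pH 6 and 956, 959 and 840.2 at pH 4.5 (-0.53 ± 0.08, adjusted p = 0.000441) and TET9 at 10.7, 10.3 and 9.56 at pH 6 and 33.4, 34.1 and 40.8 at pH 4.5 (-1.50 ± 0.26, adjusted p = 0.00237). The other 13 tetraspanins were not called. VPS2.1, an ESCRT-III subunit that sorts membrane proteins to the vacuole, had 405, 442 and 379 at pH 6 and 612, 637 and 609 at pH 4.5 (-0.60 ± 0.08, adjusted p = 0.000324), alone among 14 ESCRT genes. The prenylated RAB acceptors PRA1.B4 (-0.72 ± 0.11, adjusted p = 0.000856) and PRA8 (0.46 ± 0.08, adjusted p = 0.00318) were called in opposite directions.

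Histone and cytoskeleton genes differed by small steps. The H2B genes HTB4, HTB1 and HTB2 were lower at pH 6, HTB4 at 575, 599 and 681 at pH 6 and 972, 953 and 1013 at pH 4.5 (-0.66 ± 0.10, adjusted p = 0.000672) and HTB1 at 203, 199.7 and 186 at pH 6 and 269.9, 276 and 315 at pH 4.5 (-0.54 ± 0.10, adjusted p = 0.00422). HTB2 differed by -0.44 ± 0.11 (adjusted p = 0.028), a call lost without pH 6 replicates 1 or 3 or pH 4.5 replicates 1 or 3 (adjusted p up to 0.134). HTB11, the fourth H2B gene measured, differed by -0.08 and was not called. Among 7 tubulins TUB5 was called higher (0.38 ± 0.09, adjusted p = 0.0207) and TUB9 lower (-0.24 ± 0.07, adjusted p = 0.0481), and NET1D, of the NET actin-binding family, lower (-0.44 ± 0.11, adjusted p = 0.0265). These 3 calls were lost without pH 6 replicates 1 or 3 or pH 4.5 replicates 1 or 2 (adjusted p up to 0.101) for TUB5, without any 1 of the 6 arrays (adjusted p up to 0.164) for TUB9 and without pH 6 replicates 1 or 3 or pH 4.5 replicates 1 or 3 (adjusted p up to 0.115) for NET1D. Centring ended the call of TUB5 (adjusted p = 0.0672), and quantile normalization that of TUB9 (adjusted p = 0.0689). ACT11, an actin gene chosen after its values were seen, had 87.2, 107 and 110.5 at pH 6 and 156, 167 and 157 at pH 4.5 (-0.64 ± 0.12, adjusted p = 0.00342).

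Of 22 folding and heat-shock genes, ROF2 (AT5G48570), an immunophilin of the heat response, had signals of 51.0, 49.3 and 46.4 at pH 6 and 97.1, 81.0 and 93.4 at pH 4.5 (-0.83 ± 0.14, adjusted p = 0.00179) and was lower at pH 6 without overlap. Hop3, a co-chaperone, was called lower (-0.53 ± 0.14, adjusted p = 0.0383), a call lost without any 1 of the 6 arrays (adjusted p up to 0.146). ChiC, a chitinase, was the only called one of 18 defensin, thionin and pathogenesis-related genes, and higher (0.54 ± 0.15, adjusted p = 0.0421). Its call was lost without pH 6 replicates 1, 2 or 3 or pH 4.5 replicates 2 or 3 (adjusted p up to 0.173), and after centring and quantile normalization (adjusted p = 0.081 and 0.0692).

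Of 7 clock and clock-controlled genes, 3 were called (42.9%, beside 5.74% of all named genes). CCL (AT3G26740), a transcript that cycles daily and is known for rapid decay, had signals of 70.3, 50.3 and 45.9 at pH 6 and 13.3, 13.4 and 14.0 at pH 4.5, a log2 difference of 1.74 ± 0.20 (adjusted p = 6.03e-05). COR27 (AT5G42900), a cold-induced clock repressor, had 7.82, 6.38 and 6.55 at pH 6 and 17.1, 23.0 and 18.2 at pH 4.5 (-1.10 ± 0.19, adjusted p = 0.0019), and TIC (AT3G22380), TIME FOR COFFEE, had 261, 286 and 199 at pH 6 and 384, 339 and 358 at pH 4.5 (-0.54 ± 0.11, adjusted p = 0.0079). CCL was high and the other 2 low at pH 6, with no overlap. GI, LIP1, FIO1 and XCT were not called, at -0.03 to 0.24. The labels do not give the hour of sampling, and its part in these differences was not tested.

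Of 69 genes of the plastid genome, 2 were called higher and 1 lower (4.35%, beside 5.74% of all named genes). An unadjusted p under 0.05 in limma was seen in 19 of them (27.5%), against 17.4% of all named genes. Differences of 48 of the 69 were above 0, against 7853 of all 13286 named genes, and the highest, 1.21, was not called. The Rubisco subunit gene rbcL had signals of 118, 110.4 and 123 at pH 6 and 99.0, 46.6 and 66.4 at pH 4.5 (0.76 ± 0.19, adjusted p = 0.0277) and the photosystem gene psaB had 216, 242 and 275 at pH 6 and 187, 128 and 142 at pH 4.5 (0.68 ± 0.16, adjusted p = 0.0204). rpoA, a subunit of the plastid RNA polymerase, had 233, 383 and 247 at pH 6 and 398, 529 and 441 at pH 4.5 (-0.68 ± 0.17, adjusted p = 0.0224). Margins between the groups were narrow in all 3 genes, and the calls were lost without pH 6 replicates 1, 2 or 3 or pH 4.5 replicates 2 or 3 (adjusted p up to 0.106) for rbcL, without pH 6 replicates 2 or 3 or pH 4.5 replicates 2 or 3 (adjusted p up to 0.1) for psaB and without pH 6 replicates 1 or 3 or pH 4.5 replicates 2 or 3 (adjusted p up to 0.109) for rpoA.

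**Figure D3:**
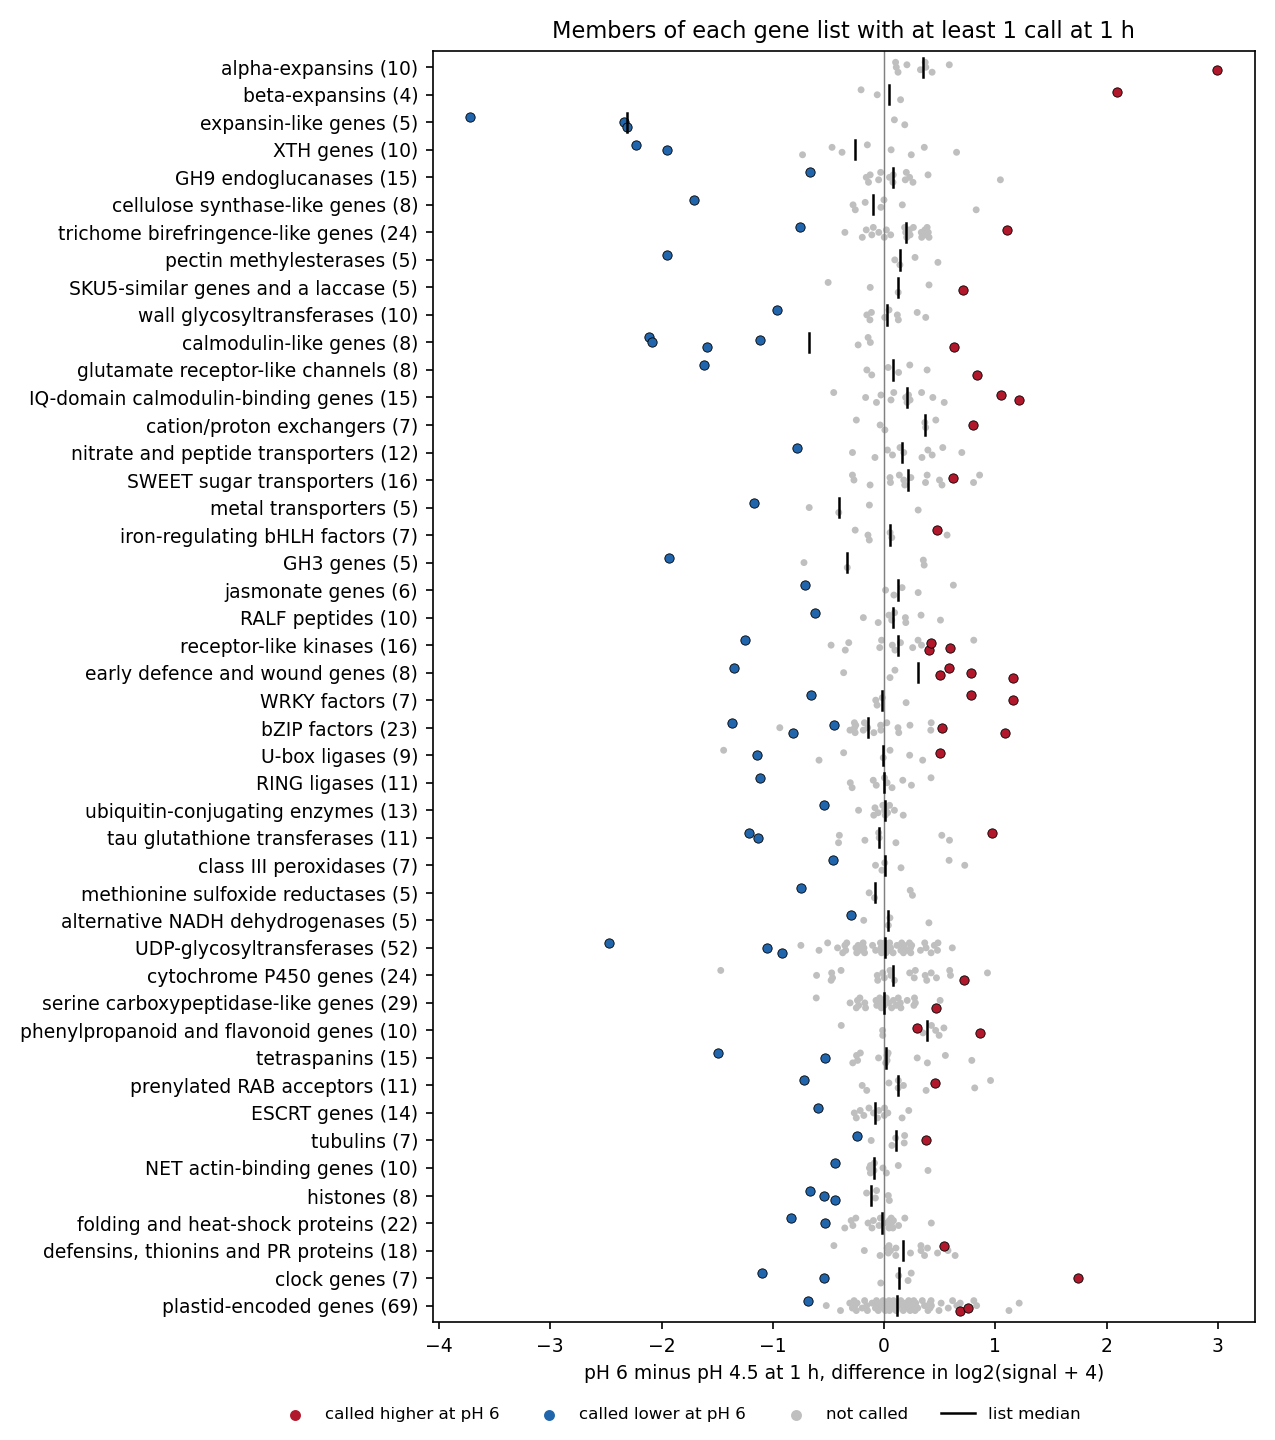
Difference in log2(signal + 4), pH 6 minus pH 4.5 at 1 h, of every member of the 46 gene lists with at least 1 call and at least 4 members (numbers in parentheses). Red points were called higher at pH 6, blue points lower, grey points were not called, and black bars are list medians. Grey points reach -1.47 in the cytochrome P450 list and 1.21 in the plastid list, and the expansin-like and calmodulin-like lists have medians of -2.31 and -0.68.

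In 31 of the 77 lists no member was called in limma. Of their 282 genes, 34 (12.1%) had an unadjusted p under 0.05, against 17.4% of all named genes, and 10 were called under at least 1 alternative. They include 22 beta-glucosidases, 12 ubiquitin-specific proteases, 12 subunits of nuclear RNA polymerases, 12 chromatin remodelling genes and 11 autophagy genes, with 3, 1, 0, 3 and 1 members at an unadjusted p under 0.05. On simulated arrays of like spread, 100 probe sets were changed at each size and 22546 were not. There the test found 65% of differences of 1 on the log2 scale and 13% of differences of 0.5. The data gave 1464 called probe sets, and the adjusted threshold is less strict where more probe sets differ. These shares therefore do not give the share missed in the data, and a missing call does not show that a gene did not differ.

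Many of the largest differences belonged to loci for which the annotation used here gives no name. At the high end AT2G36690 had signals of 205, 249 and 167 at pH 6 and 31.9, 42.0 and 29.7 at pH 4.5 (2.45 ± 0.15, adjusted p = 9.39e-08) and AT1G33840 had 624, 758 and 622 at pH 6 and 152, 182 and 126 at pH 4.5 (2.10 ± 0.14, adjusted p = 1.93e-07). AT1G26420, AT1G30700, AT3G59850, AT1G26380 and AT5G62210 followed with differences of 1.94, 1.91, 1.80, 1.76 and 1.66. At the low end AT5G52760 had 5.27, 0.779 and 0.562 at pH 6 and 97.8, 135 and 120.1 at pH 4.5 (-4.36 ± 0.28, adjusted p = 1.36e-07), and its pH 6 signals were near the floor. AT5G66650 had 44.0, 38.3 and 35.1 at pH 6 and 346, 362 and 406 at pH 4.5 (-3.12 ± 0.18, adjusted p = 6.65e-08), and AT4G27280, AT1G59660 and AT2G39980 differed by -2.80, -2.60 and -2.37. Together with EXPA9, EXPB1 and CCL, and with EXLA2, EXO, GAT1_2.1, UGT73B4 and EXLA1, these are the 10 largest called differences in each direction.

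Whether these early differences lasted was tested as the pH effect at 1 h minus the pH effect at 8 h. It was called for 2145 probe sets (9.43%) and for 1098 named genes (8.26%), 608 with the higher signed effect at 1 h (4.58%) and 490 with the lower (3.69%). At 8 h, 16.1% of named genes were called, 8.36% higher and 7.74% lower. EXPA9 and EXPB1 remained higher at pH 6, at 2.58 and 2.25 on the log2 scale at 8 h (adjusted p = 1.06e-08 and 6.07e-06), and their effects at the 2 times were not called different.

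XTH18, XTH19 and THE1 were higher at pH 6 after 8 h, against lower after 1 h. XTH19 differed by -2.23 at 1 h and 1.40 at 8 h, XTH18 by -1.95 and 0.59, and THE1 by -1.25 and 1.10. All 6 differences passed the test, and so did the changes of effect, at -3.63 ± 0.20 for XTH19 (adjusted p = 4.91e-08), -2.54 ± 0.14 for XTH18 (adjusted p = 4.34e-08) and -2.34 ± 0.14 for THE1 (adjusted p = 7.59e-08). EXLA2 and PME41 were no longer called at 8 h, at 0.52 and 0.29, with changes of effect of -4.24 ± 0.33 and -2.24 ± 0.15. At 8 h, 6 of the 8 calmodulin-like genes were called lower and 0 higher, with a median of -1.17. CML38 and CML37 were at -2.01 and -2.44, with no called change of effect. A change was called in 3 genes, CML39 (not called at 8 h, at 0.52), CML43 (lower at 8 h, at -0.98, change 1.61 ± 0.20, adjusted p = 8.69e-05) and CML41 (not called at 1 h, lower at 8 h, at -2.42, change 2.19 ± 0.29, adjusted p = 0.000156). Of the 15 IQ-domain genes, 7 were called higher at 8 h and 0 lower, with 1 called change, that of IQD19 (-0.86 ± 0.23, adjusted p = 0.0248).

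Some families had more calls at 8 h than at 1 h. Over all named genes 5.74% were called at 1 h, 16.1% at 8 h and 8.26% for the change of effect. Class III peroxidases had 1 of 7 lower at 1 h and 5 lower at 8 h, and the change of effect was called in 5. Autophagy genes had 0 of 11 at 1 h and 7 lower at 8 h, with 4 called changes. GH9 endoglucanases had 1 of 15 lower at 1 h and 5 higher at 8 h, with 4 called changes. Tubulins had 1 of 7 higher and 1 lower at 1 h and 6 higher at 8 h, with 3 called changes. ESCRT genes had 1 of 14 lower at 1 h and 7 lower at 8 h, and for them no change of effect was called.

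**Figure D4:**
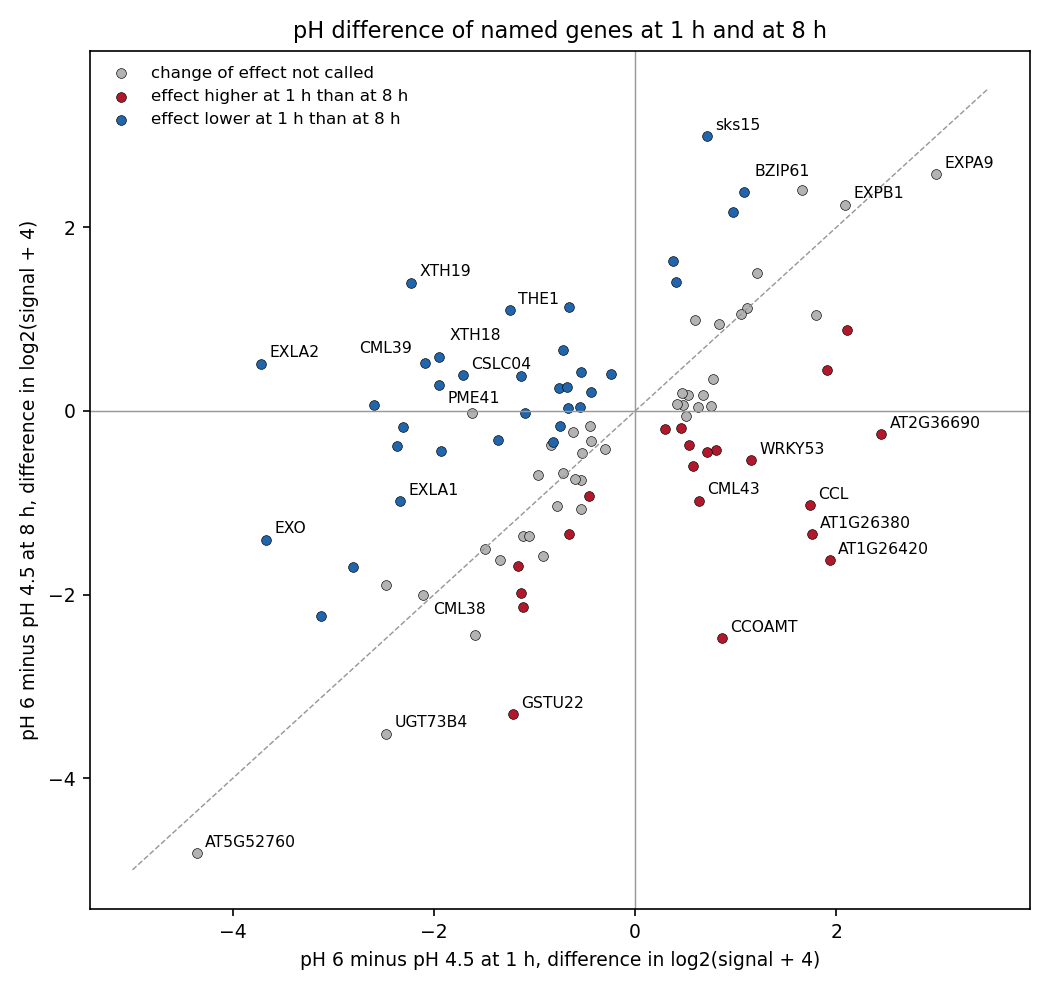
Difference in log2(signal + 4), pH 6 minus pH 4.5, at 1 h on the horizontal axis and at 8 h on the vertical axis for the 96 genes called at 1 h that are list members or among the 10 largest each way. Colours give the test of the change of effect, and the dashed line marks equal differences. EXPA9 and EXPB1 lie near that line, while XTH19 and THE1 lie above it with opposite signs at the 2 times.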

How the data were processed

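Root RNA was hybridized to ATH1 arrays after a 3' amplification with biotin, per the labels' protocols. The deposited table holds 1 linear signal intensity per probe set and array, for which the submitters' processing notes name MAS5 and GCOS. Their versions and scaling target are not given in the sources used here. No value was at or below 0.

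From these values log2(signal + 4) was taken, 64 control probe sets were left out, and limma 3.58.1 (R 4.3.3) was fitted to 22746 probe sets on all 12 arrays with a mean per group and an intensity trend, with Benjamini-Hochberg adjustment. A fold change is on that scale and understates changes of low signals. Errors after ± are standard errors. Tables and plots used Python 3.11.15, pandas 2.3.3, numpy 2.4.6 and matplotlib 3.10.9. GEO's platform annotation gave 1 gene for 13513 probe sets, several for 503 and none for 8730. Through the RefSeq table (TAIR10.1), 13436 matched 13286 genes, of which 11751 have a locus code as their only name.

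By rule, the text names the called members of the gene lists and the 10 largest called differences in each direction among genes whose groups do not overlap, and it may name any alpha-expansin, clock gene or marker gene whatever its test. Other uncalled genes (EXPB2, EXPB3, EXLB1, EXLB2, XTH26, XTH33, FER, EFR, PUB23, PUB24, UGT73B1, VHA-A3, HTB11, CML41, IQD19, YUC6) are ends of a range, relatives of a called gene or genes called only at another time or setting, and were chosen after their values were seen, as were DLAH, ASPGB1, APS3, ACT11, PRN and SUFE2. The members and lists were chosen with earlier results of these data known, and the lists replaced an earlier set that matched few genes. Alternatives were the 6 arrays at 1 h alone, constants of 1 and 16, low signals (the lowest 30%) left out, median centring, quantile normalization, a replicate block, no trend, and leaving out each array. The test was tried on simulated data, where it made 6 false calls among 22546 unchanged probe sets. The RNA ratios and median signals differ between the groups, as the report gives.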

Additional observations from a re-analysis of the deposited data

Results flagged for a closer look

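In 59 of the named genes that were called at 1 h, and in 5 that were not, the pH effect at 1 h and the pH effect at 8 h differed by the limma test of the difference itself, with 8.26% of all named genes called in that test. The 59 had been selected by their 1 h difference, which also enters this test, so their number cannot be set against the 8.26%. The values are signed effects at 1 h minus signed effects at 8 h on the log2 scale, so a negative value is a lower pH 6 minus pH 4.5 difference at 1 h. Lower and higher here do not mean weaker and stronger. EXO, at -3.67 at 1 h and -1.40 at 8 h, has a negative value and the larger difference at 1 h.

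Among wall genes called at 1 h the difference of effects was -4.24 for EXLA2, -3.63 for XTH19, -2.54 for XTH18, -2.28 for sks15, -2.27 for EXO, -2.24 for PME41 (listed as ATPMEPCRB), -2.13 for EXLA3, -2.10 for CSLC04, -1.79 for GH9C3, -1.36 for EXLA1 and -1.01 for TBR (AT5G06700). All 11 are below 0, while EXLB1, a wall gene not called at 1 h, had a value above 0. All of the 11 but sks15 had been selected as lower at 1 h, which itself moves the value below 0. Among signalling, transcription and detoxification genes it was -2.61 for CML39 (AT1G76640), -2.34 for THE1, -1.52 for PUB26, -1.49 for GH3.1, -1.20 for GSTU28, -1.001 for PXL2 (AT4G28650), -1.30 for BZIP61, -1.05 for bZIP58, -0.48 for BZIP53 and -0.59 for MSRB9. Among cytoskeleton, membrane, histone, clock, plastid and sulfur genes it was -2.17 for ACT11, -1.26 for TUB5, -0.65 for TUB9, -1.38 for PRA1.B4, -0.96 for HTB1, -0.70 for HTB4, -0.65 for HTB2, -1.07 for COR27, -0.59 for TIC, -0.95 for rpoA and -0.78 for APS3. It was -2.66 for AT1G59660, -1.99 for AT2G39980, -1.10 for AT4G27280 and -0.88 for AT5G66650, loci with no name in the annotation used.

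The signed effect was higher at 1 h in 23 of the genes called at 1 h. For a gene lower at pH 6 at both times this is a smaller difference at 1 h, as in GSTU22, at -1.21 at 1 h and -3.31 at 8 h. Among genes with a name the difference was 0.47 for peroxidase 25 (AT2G41480), 0.49 for HCT, 0.53 for MTP11, 0.64 for PRA8, 0.69 for WRKY6, 0.85 for GSTU25, 0.91 for ChiC, 1.02 for RING1, 1.17 for CYP71B29, 1.18 for BIK1, 1.22 for CHX16, 1.25 for DLAH, 1.61 for CML43, 1.69 for WRKY53, 1.79 for SUFE2, 2.09 for GSTU22, 2.77 for CCL and 3.33 for CCOAMT. For the loci without a name it was 1.22 for AT1G33840, 1.46 for AT1G30700, 2.70 for AT2G36690, 3.10 for AT1G26380 and 3.56 for AT1G26420.

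Among named genes not called at 1 h the difference was -0.72 for EXPB3, -0.86 for IQD19, 1.08 for PUB24, 1.66 for EXLB1 and 2.19 for CML41. Changes of effect in uncalled genes that the text does not name are not listed.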

How the results depend on the processing

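Of 102 genes named and called at 1 h, 72 were called under every alternative run, 30 lost the call under at least 1, and none changed sign. The count of 1464 called probe sets lay at 1052 without the intensity trend, 1093 on the 6 arrays alone and 1706 of 15922 with low signals left out. On the 6 arrays alone 20 of the 102 calls were lost (CML43, GLR3.5, iqd33, IQD16, RALFL33, PXL2, GSO1, PUB22, BIK1, PUB26, UBC16, NDB2, IAGLU, HCT, TUB9, TUB5, HTB2, ChiC, rpoA and rbcL). Without the trend 21 were lost (CML43, GLR2.7, iqd33, PXL2, GSO1, PUB22, BIK1, UBC16, NDB2, HCT, CCOAMT, TUB9, TUB5, NET1D, HTB2, Hop3, ChiC, rpoA, psaB, rbcL and GAT1_2.1). GLR2.7, HCT and TUB9 lost the call with 1 added in place of 4, ChiC with 16 added and TUB9 with low signals left out. Leaving out each array gave 996 to 1202 calls, 429 to 541 higher and 567 to 670 lower. The count of higher calls was lowest without pH 4.5 replicate 1, at 429, and without pH 6 replicate 3, at 442, where fewer arrays entered the fit. Centring gave 456 higher and 959 lower calls, against 674 and 790 as reported, and moved the median difference to -0.008 from 0.054. Same-numbered arrays correlated at -0.037, 0.138 and 0.060 in their deviations from group means. Low values of this kind cannot exclude a culture or batch shared by arrays of the same number, and whether they shared one is not known. The fit with the replicate number as a block gave 1499 calls, 692 higher and 807 lower, and NDB2, HCT, TUB9 and Hop3 were no longer called. How many differences near 0.5 on the log2 scale were missed with 3 arrays a group is not known. The simulation changed fewer probe sets than were called in the data.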
